A study of Rattus norvegicus with 6 samples.

Results

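The set described here is 10 genes of the ATF4 amino acid stress response, chosen by name: Atf4, Atf5, Ddit3, Trib3, Asns, Chac1, Psat1, Phgdh, Sesn2 and Slc7a5. A gene was taken from the array rows whose annotation gives exactly 1 symbol, and of several rows the one with the highest mean was used. This gave values for 9 of the 10 genes, among 14324 genes tested in all; Sesn2 was not analysed here. Total RNA came from the aorta of male Fisher 344 rats aged 1 to 2 months. The day 0 group was freshly cut aortic rings, and the day 1 group was rings embedded in collagen gel and kept in serum-free EBM medium for 1 day, with the gel taken along with the ring. Each group held 3 biological replicates, and each replicate pooled 4 to 6 rings or cultures on 1 array, with 200 ng of total RNA labelled. Nothing in the labels says whether replicates shared animals. The p-values therefore rest on differences among these pools, which may be partly technical, and the number of arrays limits the precision. No ring was kept for 1 day without gel or in another medium, so time, cutting, gel and medium cannot be told apart.

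ATF4 is a bZIP transcription factor whose messenger is translated more efficiently when the initiation factor eIF2 is phosphorylated. The kinases that phosphorylate eIF2 respond to lack of amino acids, to misfolded protein in the endoplasmic reticulum, to heme deficiency or to double-stranded RNA. ATF4 then raises transcription of genes for amino acid uptake, amino acid synthesis and tRNA charging, together with regulators that restrain or end the response. Because ATF4 is controlled largely at translation, its messenger level need not follow its protein level, and arrays measure the messenger only.

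After 1 day of culture 7 of the 9 measured genes were higher and 1 was lower. In the same comparison 27.6% of all genes tested were called higher and 20.7% lower, 48.3% together (limma, Benjamini-Hochberg adjusted p under 0.05 over all 14324 genes). The balance of those calls over all genes depends on scaling: 3947 genes were higher and 2968 lower as deposited, against 3463 and 3823 with median centring, while the set kept 7 higher and 1 lower. The rises were of unequal size. Asns, Trib3, Ddit3, Slc7a5 and Psat1 rose 2.63-fold to 4.97-fold, while Atf4 itself and Phgdh rose 1.23-fold and 1.21-fold. Atf5 fell and Chac1 did not pass the threshold. The 5 large rises were among the 592 genes (4.13% of all tested) called higher by at least 2-fold. The median log2 change of the 9 genes was 1.40, against -0.01 over all genes tested. The groups did not overlap in 8 of the 9 genes, and in 56.9% of all genes tested.

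**Figure D1:**
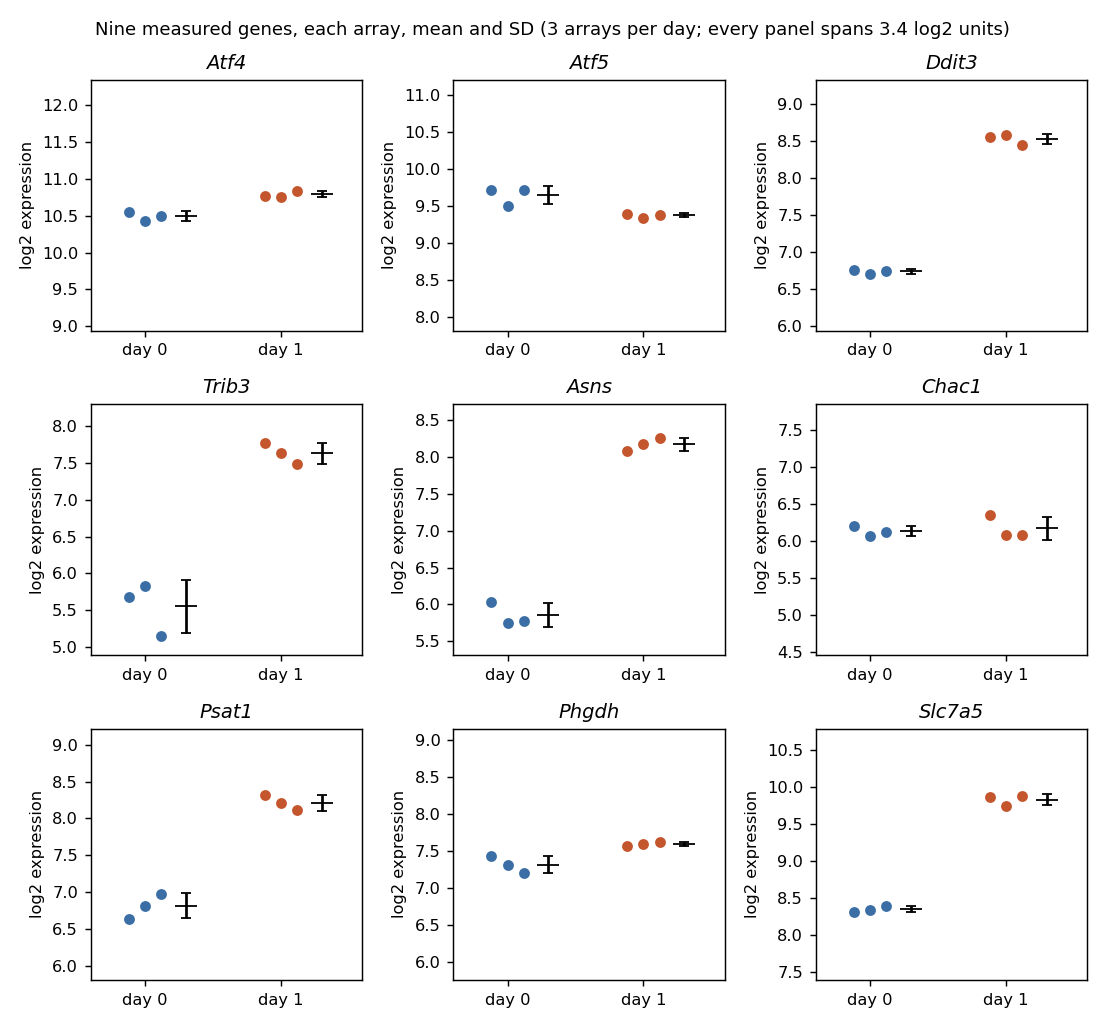
Log2 expression of the 9 measured genes on each array, with day 0 in blue and day 1 in orange; the black bar and whiskers are mean and SD of 3 arrays, and every panel spans the same number of log2 units. Day 1 stands clear above day 0 for Ddit3, Trib3, Asns, Psat1 and Slc7a5, slightly above for Atf4 and Phgdh, below for Atf5, and overlaps it for Chac1.

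All levels below are log2 values of 1 row per gene, on the scale of the deposited table. They are compared between days for the same gene and not between genes. Changes are day 1 minus day 0 in log2 units with their standard error (SE) from limma, with 3 arrays per group.

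Among the transcription factors, Atf4 read 10.56, 10.43 and 10.50 on day 0 and 10.77, 10.76 and 10.84 on day 1. All day 1 arrays lay above all day 0 arrays, by a narrow margin of 0.20. The log2 change was 0.29 ± 0.06 (SE; limma adjusted p = 0.0053), and 3288 genes, 23.0% of those tested, ranked at or above it by size of rise.

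Atf5, a related bZIP factor that is also translated preferentially under stress, read 9.72, 9.51 and 9.72 on day 0 against 9.40, 9.35 and 9.39 on day 1. The groups did not overlap, with a margin of 0.11. Its log2 level fell by 0.27 (SE 0.07; limma adjusted p = 0.0171), a 1.21-fold lower level. The call was lost when any of 3 arrays was left out. Leaving out day 0 replicate 1 gave -0.24 (limma adjusted p = 0.0559), day 0 replicate 3 gave -0.24 (limma adjusted p = 0.0592), and day 1 replicate 2 gave -0.26 (limma adjusted p = 0.0552). With quantile normalization the change was -0.39 (limma adjusted p = 0.00263).

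Ddit3 encodes CHOP, a C/EBP family factor induced by ATF4 that promotes cell death when stress persists. It read 6.76, 6.70 and 6.75 on day 0 and 8.55, 8.58 and 8.45 on day 1. The spread was small in both groups (SD 0.03 and 0.07), and the gap between them was 1.69. The rise was 1.79 ± 0.06 (SE; 3.46-fold, limma adjusted p = 3.41e-07).

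Trib3 encodes a pseudokinase that binds ATF4 and dampens its activity. Its day 0 arrays read 5.68, 5.83 and 5.15, and its day 1 arrays 7.77, 7.63 and 7.48. Day 0 replicate 3 was the lowest array, and day 0 had the widest spread of any gene of the set (SD 0.36), yet the groups stayed 1.66 apart. The rise was 2.08 ± 0.17 (SE; 4.22-fold, limma adjusted p = 2.73e-05), and 1.87 without day 0 replicate 3.

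Asns, the enzyme that makes asparagine from aspartate and glutamine, had the largest rise of the 9 genes. It read 6.04, 5.75 and 5.78 on day 0 and 8.08, 8.17 and 8.26 on day 1, a gap of 2.04. The change was 2.31 ± 0.09 (SE; 4.97-fold, limma adjusted p = 6.76e-07), rank 72 of 14324 genes by size of rise.

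Psat1 and Phgdh act next to each other in the synthesis of serine from a glycolytic intermediate, Phgdh in the first step and Psat1 in the second. Psat1 read 6.64, 6.82 and 6.98 on day 0 and 8.32, 8.21 and 8.11 on day 1. Its rise was 1.40 ± 0.10 (SE; 2.63-fold, limma adjusted p = 1.26e-05). A second array row of Psat1, with a lower mean, went from 5.43 ± 0.13 to 6.13 ± 0.26 (SD, n = 3), a smaller difference of 0.70 in the same direction.

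Phgdh, in contrast, read 7.43, 7.31 and 7.21 on day 0 and 7.57, 7.59 and 7.62 on day 1. The groups were parted by 0.14. Its rise was 0.28 ± 0.07 (SE; limma adjusted p = 0.0133), and 0.18 (adjusted p = 0.0492) with quantile normalization. The 95% confidence intervals of the 2 serine enzymes, 1.17 to 1.63 for Psat1 and 0.11 to 0.45 for Phgdh, did not overlap.

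Slc7a5 encodes LAT1, the exchanger that carries leucine and other large neutral amino acids into cells. It read 8.31, 8.33 and 8.39 on day 0 and 9.87, 9.74 and 9.88 on day 1. The groups were 1.35 apart, and the rise was 1.48 ± 0.07 (SE; 2.80-fold, limma adjusted p = 1.04e-06). LAT1 works as a pair with the heavy chain encoded by Slc3a2. Slc3a2 read 10.31, 10.37 and 10.28 on day 0 and 11.47, 11.40 and 11.42 on day 1, and rose by 1.11 ± 0.06 (SE; limma adjusted p = 2.76e-06). Both chains of the transporter were thus higher on every day 1 array.

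Chac1, which encodes an enzyme that breaks down glutathione and is a target of ATF4 and CHOP, read 6.20, 6.07 and 6.13 on day 0. On day 1 it read 6.35, 6.08 and 6.09, with replicate 1 above all day 0 arrays and the other arrays inside their range. The change was 0.04 ± 0.09 (SE; limma adjusted p = 0.743), with a 95% confidence interval of -0.17 to 0.25. That interval lies below those of Trib3 (1.68 to 2.47) and Ddit3 (1.65 to 1.94). Chac1 and Trib3 were the genes of the set with a mean under the median of all genes, and Trib3 rose by 2.08. Log2 values can understate changes of dim genes, but whether they did so here was not tested.

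**Figure D2:**
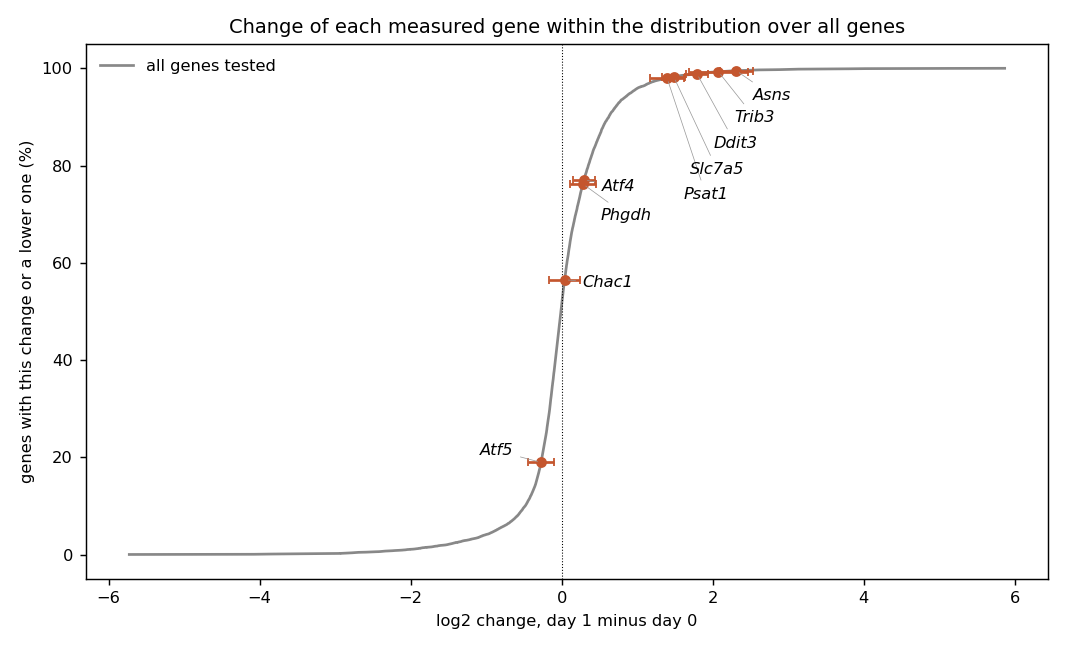
Log2 change of the 9 measured genes (orange, with 95% confidence intervals from limma) on the cumulative distribution of the change over all 14324 genes (grey line; vertical axis, percent of genes with this change or a lower one). Asns, Trib3, Ddit3, Slc7a5 and Psat1 sit at the upper end, Atf4 and Phgdh on the slope, Chac1 near 0 and Atf5 below it.

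With the 1 row used per gene, the size of the changes fell into separate ranges. The lowest confidence bound of the 5 large rises was 1.17, for Psat1, and the highest bound of the other genes was 0.45, for Phgdh. The second row of Psat1 changed by 0.70, between these bounds. Under other settings the change of Psat1 was as low as 1.05. Within the large rises the interval of Asns (2.09 to 2.53) overlapped that of Trib3 and lay above those of Ddit3, Slc7a5 (1.33 to 1.64) and Psat1. These intervals measure the spread among arrays within 1 row per gene, and not how rows differ in response. Differences between genes were not tested beyond them. By size of rise, 1.12% of all genes ranked at or above Ddit3, 0.719% at or above Trib3, 0.503% at or above Asns, 1.76% at or above Slc7a5 and 2.03% at or above Psat1.

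ATF4 binds, with a C/EBP partner, to a composite element whose core can be written TGATGNAA. Promoter windows from RefSeq (build GRCr8), each covering 250 bases before and 50 after the annotated start, were found for all 10 genes. The core was searched on both strands. It occurred upstream of the start in 2 of the 10, Trib3 and Chac1, and in 3.4% of all 33469 such windows. Both are shown because they share the core and differ in response, with Trib3 4.22-fold higher on day 1 and Chac1 not past the threshold. The 250 bases upstream of each start are given with the match in capitals, which reads as the core on the opposite strand.
Trib3, chr3:161275534-161275783, minus strand: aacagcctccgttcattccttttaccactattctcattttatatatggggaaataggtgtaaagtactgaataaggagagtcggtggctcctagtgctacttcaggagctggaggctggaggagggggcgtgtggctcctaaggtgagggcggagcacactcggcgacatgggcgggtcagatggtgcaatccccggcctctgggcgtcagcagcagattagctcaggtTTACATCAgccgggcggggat
Chac1, chr3:126795881-126796130, plus strand: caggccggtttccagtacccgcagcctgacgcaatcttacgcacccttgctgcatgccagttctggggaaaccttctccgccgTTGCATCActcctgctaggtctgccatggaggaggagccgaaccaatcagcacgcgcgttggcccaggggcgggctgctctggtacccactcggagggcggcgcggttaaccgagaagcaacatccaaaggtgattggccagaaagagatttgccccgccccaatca
In Trib3 the match lies at bases -21 to -14 from the start, and in Chac1 at bases -167 to -160. The windows of the other genes, Asns and Ddit3 included, hold no such match, which says only that these letters are not in these windows.

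Other motifs were searched in the same way. The E-box CACGTG, bound by MYC and related factors, occurred upstream in Atf4 (bases -82 to -77) and Slc7a5 (bases -179 to -174), and in 5.59% of all windows. The cyclic AMP response element TGACGTCA (1.59% of all windows) and the endoplasmic reticulum stress element (0.0657%) occurred upstream in 0 of the 10. A match is a sequence of letters and not a measured binding site.

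The rest of the pathway was followed through 11 lists holding 147 genes, of which 128 were measured. On day 1, 90 of the 128 were higher and 14 lower, with a median log2 change of 0.48. The shares over all genes tested were 27.6% and 20.7%, and the counts of each list below are to be read against them. At least 2-fold rises were called for 21 of them and 2-fold falls for 5, where 4.13% and 4.11% of all genes tested had such calls.

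**Figure D3:**
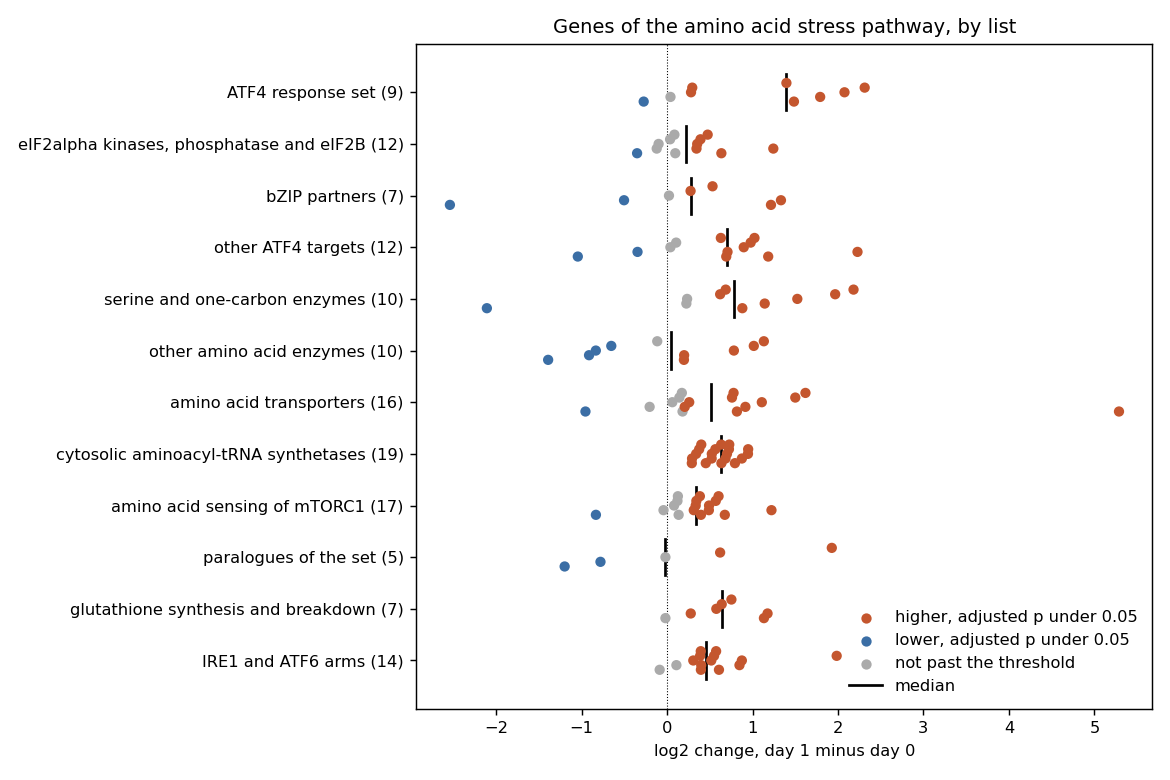
Log2 change of each measured gene, day 1 minus day 0, in the ATF4 response set and in 11 pathway lists; the number of measured genes is in brackets, the black line is the list median, orange and blue points are higher and lower at an adjusted p under 0.05, and grey points did not pass. All 19 tRNA synthetases lie to the right of 0, whereas the set and every other list have points on both sides.

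Upstream of ATF4 stand the eIF2alpha kinases, the phosphatase subunits that reverse them and the exchange factor eIF2B. Of 12 measured, 6 were higher and 1 was lower, with a median of 0.22. Eif2b3, a subunit of eIF2B, rose by 1.24 ± 0.07 (SE) and Eif2s1, the phosphorylated subunit of eIF2 itself, by 0.64 ± 0.07. Eif2b2 rose by 0.47 and the heme-regulated kinase gene Eif2ak1 by 0.39. The gene that fell was Eif2ak3, encoding the endoplasmic reticulum kinase PERK, at -0.35 ± 0.07 (limma adjusted p = 0.00308). With quantile normalization 3 genes of this list were lower in place of 1, and with median centring 2. Chosen after their values were seen, Eif2ak4, the amino acid sensing kinase GCN2, was at 0.09 ± 0.06 (limma adjusted p = 0.267). Ppp1r15a, the stress-induced phosphatase subunit GADD34 and a target of ATF4 and CHOP, was at -0.12 ± 0.08 (limma adjusted p = 0.229).

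Of 7 measured bZIP partners 4 were higher and 2 lower, where 27.6% and 20.7% of all genes tested were. Atf3, an ATF4 target that is also an immediate early gene, read 10.21, 10.05 and 10.08 on day 0 and 7.56, 7.57 and 7.59 on day 1. It thus moved opposite to Ddit3, at -2.54 ± 0.06 (SE; limma adjusted p = 9.91e-08), a 5.82-fold lower level. Cebpb, a common partner of ATF4, rose by 1.33 ± 0.10 and Nfe2l2, the oxidative stress factor NRF2, by 1.22 ± 0.07. Nfe2l1 rose by 0.53.

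Of the 12 measured genes listed as other targets of ATF4, 8 were higher and 2 lower, with a median of 0.70. Targets placed in other lists, such as Atf3 and Ppp1r15a, are not in this count. Gdf15, a secreted stress cytokine, had the largest rise of the list. It read 5.81, 5.95 and 6.26 on day 0 and 8.14, 8.26 and 8.30 on day 1, a rise of 2.23 ± 0.12 (SE; limma adjusted p = 2.43e-06). The autophagy genes Sqstm1 and Map1lc3b rose by 1.18 and 1.02. Vldlr, a lipoprotein receptor gene, fell by 1.04 (SE 0.06). Of the rest, picked out after their values were seen, the mTORC1 inhibitor gene Ddit4 was at 0.04 ± 0.07 (limma adjusted p = 0.673) and the stress factor gene Nupr1 at 0.11 ± 0.06 (limma adjusted p = 0.206). The hormone gene Fgf21, seen in the same way, was lower at -0.35 ± 0.09 (limma adjusted p = 0.0114).

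Serine feeds the one-carbon cycle on folate, and 7 of 10 measured enzymes and carriers of this group were higher and 1 lower (median 0.78). The mitochondrial enzyme gene Mthfd1l read 6.03, 5.54 and 5.90 on day 0, and its day 1 arrays had an SD of only 0.01. The change was 2.18 ± 0.12 (SE; 4.54-fold, limma adjusted p = 2.91e-06). Shmt1, the cytosolic serine hydroxymethyltransferase, rose by 1.97 ± 0.08, and the mitochondrial serine carrier gene Sfxn1 by 1.52 ± 0.09. The gene that fell, Aldh1l2, encodes a mitochondrial enzyme that oxidises formyl-folate. It went from 8.79, 8.75 and 8.60 to 6.60, 6.51 and 6.70, a change of -2.11 ± 0.08 (SE; limma adjusted p = 4.55e-07). Psph, the last step of serine synthesis, was named after its value was seen and rose by 0.62 ± 0.07, between Phgdh and Psat1 in size.

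Other amino acid enzymes were divided, with 5 higher and 4 lower of 10 and a median of 0.04. Got1, the aspartate transaminase of the cytosol, rose by 1.13 ± 0.07 and Cth, which makes cysteine, by 1.01 ± 0.07. The alanine transaminase gene Gpt fell by 0.91 (SE 0.11). Pycr1, the last enzyme of proline synthesis, read 7.41, 6.92 and 7.40 on day 0 and 5.94, 5.57 and 6.06 on day 1, at -1.39 ± 0.17 (SE; limma adjusted p = 0.000238). Aldh18a1, the first enzyme of proline synthesis, was named after its value was seen and was also lower, at -0.83 ± 0.06. The asparagine and serine enzymes of the set were thus higher while both of these proline enzymes were lower. The count of 5 higher genes fell to 3 with median centring, with the replicate number as a block, and without day 0 replicate 1, day 0 replicate 3, day 1 replicate 1 or day 1 replicate 2.

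Amino acid transporters were higher in 10 and lower in 1 of 16 cases, with a median of 0.51. Slc7a11, the cystine chain that shares the heavy chain Slc3a2 with Slc7a5, read 3.32, 3.43 and 3.49 on day 0 and 8.70, 8.56 and 8.84 on day 1. The day 0 readings lay under the lower quartile of all rows on their arrays (4.32 to 4.39). Log2 values can understate changes at such levels, so the rise of 5.29 ± 0.09 (SE) may be too small. Slc43a1, another carrier of large neutral amino acids, rose by 1.62 ± 0.14, and the glutamine carrier gene Slc1a5 rose 2.83-fold (limma adjusted p = 8.16e-06). The related carrier gene Slc1a4 fell by 0.95 (SE 0.09), and with median centring 2 transporters were lower in place of 1.

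The cytosolic tRNA synthetases, which load amino acids onto tRNA, were higher in 19 of 19 measured cases. None reached a 2-fold rise; the changes ran from 0.29 to 0.95, with a median of 0.63. The asparagine enzyme gene Nars1 and the valine enzyme gene Vars1 had the largest, each 0.95 (SE 0.06 and 0.07). Qars1 was at 0.88 and Mars1 at 0.79. All 19 calls were also made under both other scalings and with any 1 array left out. In the test against a 1.5-fold change 4 of the 19 were called higher. Each synthetase rose by less than Psat1 did in the row used for it. The second row of Psat1 changed by 0.70, less than Nars1, Vars1, Qars1 and Mars1.

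Genes by which mTORC1 senses amino acids were higher in 11 and lower in 1 of 17 cases (median 0.34). The folliculin gene Flcn rose by 1.22 ± 0.08, Rragd by 0.68 and Lamtor1 by 0.60, and Sec13 fell by 0.83 (SE 0.06). Sesn2, which also acts on this pathway as a leucine sensor, has the paralogues Sesn1 and Sesn3. Sesn1 fell by 0.78 (SE 0.06) and Sesn3 rose by 0.62 ± 0.07. The other paralogues were divided as well. Trib1 rose by 1.93 ± 0.12, while Trib2 fell by 1.20 (SE 0.09). Chac2, the paralogue of Chac1 and named after its value was seen, was at -0.02 ± 0.08 (limma adjusted p = 0.862).

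Glutathione, which Chac1 degrades, was followed through a list of genes for its synthesis and breakdown. In this list 6 of 7 measured genes were higher and 0 lower by limma, with a median of 0.64. The rate-limiting subunit gene Gclc rose by 1.18 ± 0.06 and the synthetase gene Gss by 1.13 ± 0.07. Ggct rose by 0.75 and the reductase gene Gsr by 0.64. At an unadjusted p under 0.05 as well, 0 genes of the list were lower, where 3494 of all 14324 genes tested were.

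CHOP and ATF4 also respond to misfolded protein, a stress that in addition engages IRE1 and ATF6. Of 14 measured genes of those arms 12 were higher and 0 lower, with a median of 0.46. Sdf2l1, a chaperone cofactor, had the largest rise at 1.98 ± 0.10 (SE) and was the only gene of this list with a 2-fold rise. Dnajb9 was at 0.87, Atf6 at 0.85 and Hyou1 at 0.61. Xbp1, named after its value was seen, was at -0.09 ± 0.06 (limma adjusted p = 0.249). The array row reads total Xbp1, so the spliced form made by IRE1 was not measured. None of the 14 was lower at an unadjusted p under 0.05, where 3494 of all 14324 genes tested were.

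Marker genes of several cell types differed between the days, as did many genes: 27.6% of all genes tested were called higher and 20.7% lower. All 7 smooth muscle markers were lower, and their mean log2 level per array went from 11.61 to 11.70 on day 0 to 8.21 to 8.35 on day 1. Macrophage markers were higher in 4 and lower in 1 of 7 cases (8.45 to 8.53 against 8.93 to 9.13), and endothelial markers higher in 4 and lower in 1 of 5 (7.59 to 7.79 against 7.97 to 8.11). Fibroblast markers were divided, 3 higher and 3 lower of 6 (11.61 to 11.70 against 11.60 to 11.70). Adipocyte markers were lower in 4 of 5 cases (6.25 to 6.44 against 5.58 to 5.77). Of 3 genes listed for skeletal muscle, the 2 measured, Ckm and Acta1, were lower (9.85 to 9.91 against 6.57 to 6.90). Whether their signal came from skeletal muscle was not tested. By limma, 0 of 3 lymphocyte, 0 of 3 neutrophil and 0 of 1 Schwann cell markers passed, and 0 of these passed at an unadjusted p under 0.05. At that unadjusted threshold 4254 of all 14324 genes tested were higher and 3494 lower. In whole rings, fewer cells of a type and less RNA per cell cannot be told apart. The part of these shifts in the changes of the ATF4 response genes was not tested.

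**Figure D4:**
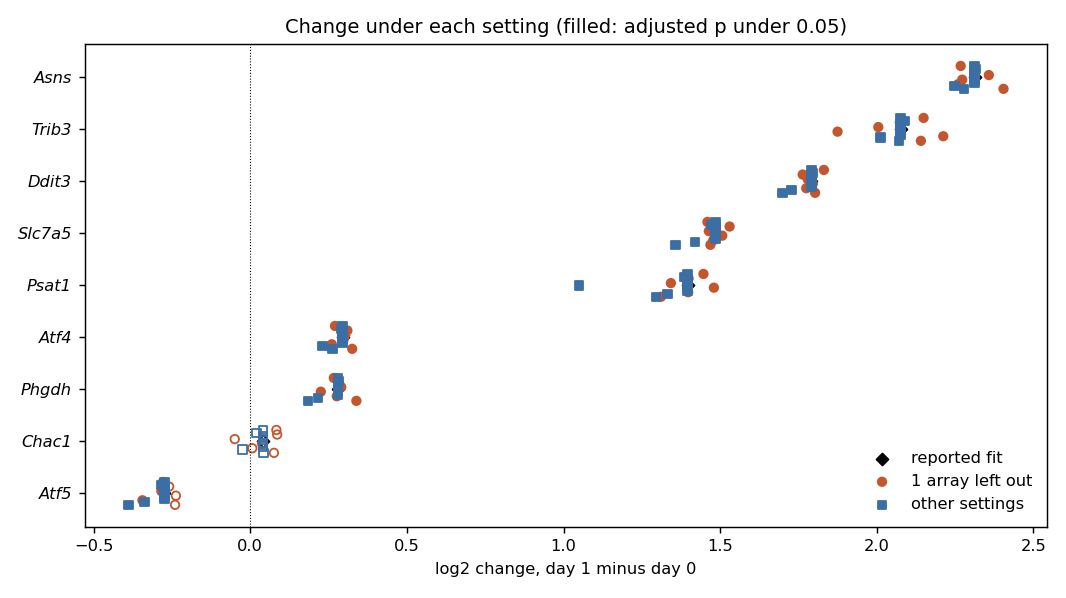
Log2 change, day 1 minus day 0, of each measured gene in the reported fit (diamonds), with 1 array left out (circles) and under the other settings apart from the test against 1.5-fold (squares); open symbols did not pass an adjusted p of 0.05. Genes with large rises stay above 0 and pass in every fit shown. Atf5 loses its call in 3 of the 6 fits without 1 array, and Chac1 passes in none.

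The 5 large rises passed the threshold in every fit that held the gene, including the test against a 1.5-fold change. Against that larger fold, Atf4, Atf5 and Phgdh each had an adjusted p of 1 (limma treat), so their changes were past 0 but not past 1.5-fold. Trib3 and Chac1 were not in the fit without genes under the median mean.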

How the data were processed

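Values were used as deposited by the authors, as log2 expression (a scale taken from their range), in a table of 27342 rows from 6 whole-transcript arrays. The submitters' processing notes name limma; the background correction, normalization, summarisation and genome build they used were not given in the sources used here. Medians of the arrays ran from 5.87 to 5.95, and no further scaling was applied. If arrays were equalised, changes are relative to the bulk of genes.

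The annotation gave 15097 rows exactly 1 symbol, updated through RefSeq GRCr8, for 14324 genes. The main comparison used limma 3.58.1 under R 4.3.3 (lmFit and eBayes without filter or block; two-sided), and p-values were adjusted by Benjamini-Hochberg across all 14324 genes, with calls at 0.05. The procedure was tested on simulated data. Python 3.11.15, pandas 2.3.3, numpy 2.4.6 and matplotlib 3.10.9 made tables and figures.

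The genes, lists and tests were chosen with earlier results of these data known. Named genes are all of the set, from each list up to 4 with the largest change past the threshold and the largest against the list's majority, or the 2 largest where none passed, and Slc7a11 and Slc3a2. Eif2ak4, Ppp1r15a, Ddit4, Nupr1, Fgf21, Psph, Aldh18a1, Xbp1 and Chac2 fall outside this rule and were named after their values were seen. No list was tested as a set. Promoters came from RefSeq, and those printed hold TGATGNAA upstream of the start. The endoplasmic reticulum stress element was searched as CCAAT and CCACG parted by 9 bases.

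Other settings tried were 2 scalings (quantile, median centring), leaving out the dimmest 25% of genes or those below the median mean, 2 other choices of row (mean, most variable), eBayes with trend and robust prior, weighted arrays, treat against 1.5-fold, a replicate block, and leaving out each array.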

Additional observations from a re-analysis of the deposited data

How the results depend on the processing

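The 9 changes kept their direction and their side of the threshold under the alternatives tried, except for Atf5 without day 0 replicate 1, day 0 replicate 3 or day 1 replicate 2, for Atf4, Atf5 and Phgdh against 1.5-fold, and for the sign of Chac1, which passed in none. Against a 1.5-fold change 1550 genes were called in place of 6915, with 31 pathway genes higher in place of 90, 8 lower in place of 14, and 0 of the set lower; there the alternative asks for a larger change. With 1 array left out, 0 to 1 genes of the set were called lower, and the cause was not tested. Without that stricter test, 85 to 91 pathway genes were higher and 14 to 16 lower in the fits with all 128 measured; without genes under the median mean, which left 105 of them, 80 were higher and 11 lower. Replicate numbers were not shown to pair the arrays: same-numbered arrays deviated together with correlations of 0.0106, 0.0186 and 0.0364, and not every array correlated best with its own number. With the replicate number as a block 6686 genes were called, and 7 of the set were higher and 1 lower. The number of arrays limits small changes such as those of Atf4, Atf5 and Phgdh, and Chac1 is also dim, with a mean under the median of all genes.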
